A study of Mus musculus with 12 samples.

Results

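The genes described are 50 genes of the cell cycle and mitosis, measured in whole mouse skin, whose roles run from the licensing of DNA replication to cytokinesis. They were chosen as a list of genes known for these functions, each read from 1 probe set annotated to that gene alone, the brightest such set over all arrays. A probe set was found for 49 of the 50, among 18193 genes in all, and *Ccnb1* had none. The 49 comprised 21 genes of G1 and S phase and 28 of G2 and M phase.

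Microarray analysis was carried out on RNA of whole skin from mice deficient in or heterozygous for *Ahr*, the gene of the aryl hydrocarbon receptor (AhR), a ligand-activated transcription factor. The design crossed genotype with treatment with imiquimod (IMQ), a ligand of toll-like receptors in a cream that provokes psoriasis-like inflammation. Each of 4 groups had 3 arrays: untreated *Ahr*+/- skin, untreated *Ahr*-/- skin (both labelled as day 0), and skin of both genotypes on day 2 of IMQ. The comparisons therefore ask how the skin responds to IMQ early on, and whether the absence of AhR changes the untreated skin or the response. The *Ahr*+/- mice, heterozygous littermates in the study, lacked 1 copy, so no group had the full gene dose. The sources used here do not give the mice's age. No group here was given a cream free of drug, so that what imiquimod did and what the cream or its handling did cannot be told apart.

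Cells enter S phase when cyclin and kinase pairs release the E2F transcription factors, which switch on the genes of DNA replication. Promoters of G2 and M phase genes often hold a pair of elements, the CCAAT box and the cell cycle homology region (CHR). The DREAM complex represses these genes early in the cycle. MYBL2 and FOXM1 activate them later, so that their transcripts peak before division. In skin, dividing cells lie mainly in the basal layer of the epidermis and, while hair grows, in the matrix of the follicle, and a thickened epidermis with frequent mitoses is a hallmark of psoriasis. In RNA of whole tissue, fewer cells of a type and less RNA per cell cannot be told apart.

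Promoters were examined because the members moved together on IMQ. RefSeq promoters (build GRCm38.p6) were matched by symbol for 40 of the 50 genes, with 43 starts, and were not matched for *Aurkb*, *Ccna2*, *Ccnd1*, *Ccne2*, *Cdc25c*, *Foxm1*, *Gmnn*, *Kif20a*, *Mcm4* and *Tpx2*. Motifs were searched on both strands of the 250 bases before each start: CCAAT for the CCAAT box, TTTGAA for the CHR, and TTTCCCGC, TTTCGCGC, TTTGGCGC or TTTGCCGC for E2F sites. The promoters of 3 members are printed, 1 per motif (*E2f8* for the CCAAT box, *Cdc20* for the CHR and *Cdk1* for E2F sites), as those with the largest called rise on IMQ in either genotype among the members that hold the motif, each member used once. *E2f8* (chr7:48881597-48881846, minus strand), *Cdc20* (chr4:118437344-118437593, minus strand) and *Cdk1* (chr10:69352913-69353162, minus strand) are given 5′ to 3′ up to the base before the start. The *E2f8* window lies inside the span of its gene, which runs to base 48882073, so the start used there is an internal one. Capitals mark the motifs, with ATTGG and TTCAAA as the other strand of CCAAT and TTTGAA.
E2f8: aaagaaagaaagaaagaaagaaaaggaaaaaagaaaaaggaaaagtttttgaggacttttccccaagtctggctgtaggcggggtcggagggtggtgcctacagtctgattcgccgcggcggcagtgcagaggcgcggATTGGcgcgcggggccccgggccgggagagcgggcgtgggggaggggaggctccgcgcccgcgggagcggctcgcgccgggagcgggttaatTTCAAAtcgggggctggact
Cdc20: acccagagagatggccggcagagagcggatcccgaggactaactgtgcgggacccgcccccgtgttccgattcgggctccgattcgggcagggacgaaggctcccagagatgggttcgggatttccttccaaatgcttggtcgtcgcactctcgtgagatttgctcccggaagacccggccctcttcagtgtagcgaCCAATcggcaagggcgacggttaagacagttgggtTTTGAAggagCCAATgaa
Cdk1: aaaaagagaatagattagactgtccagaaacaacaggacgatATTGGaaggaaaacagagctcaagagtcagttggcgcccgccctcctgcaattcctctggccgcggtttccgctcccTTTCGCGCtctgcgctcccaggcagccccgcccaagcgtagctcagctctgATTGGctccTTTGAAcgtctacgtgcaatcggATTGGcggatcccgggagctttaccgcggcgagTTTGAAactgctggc

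In the *Cdc20* window, a CHR lay 18 bases before the start between a pair of CCAAT boxes, counted from the motif's first base. The *Cdk1* window held 6 motifs, and its E2F letters began 131 bases before the start. *E2f8* had 1 CCAAT box and 1 CHR. No motif overlapped another in these windows. Over the 43 starts, CCAAT was found in 33, or 76.7%, against 33.8% of all 32851 promoters of the same length in the table. The CHR letters were found in 23.3% of the starts of members and in 16% of all promoters. E2F letters were found in 16.3% and 1.86%. The classes differed in these shares: the CHR letters were in 8 of 24 starts of G2 and M phase genes and in 2 of 19 of G1 and S phase genes, whereas E2F letters were in 1 of 24 and 6 of 19. These are counts of letters in windows that were not matched for base composition, and no binding was measured.

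The arrays were of similar brightness, with medians between 7.38 and 7.56 on the log2 scale of the deposited values. The *Ahr* probe set ranged from 10.11 to 11.30 without treatment in *Ahr*+/- mice, with a range of 11.29 to 11.44 in *Ahr*-/- mice. On day 2 the ranges were 9.79 to 10.27 and 9.07 to 9.87. It did not separate the genotypes without treatment, and the sources used here do not give its place relative to the deleted part of the gene, so it does not check the labels. The second array of untreated *Ahr*+/- skin stood apart. The mean of 23 genes of hair follicles in their growth phase was 11.67 there and 5.70 to 7.95 in the other 11 arrays, and all 23 of these genes had their highest signal in it. The mean of 6 melanocyte genes was 10.98 there and 5.67 to 7.61 elsewhere. Hereafter it is called the follicle-rich array, and results that involve it are given with and without it. A second feature concerned IMQ-treated *Ahr*-/- skin, where the 3′ minus 5′ difference of the *Gapdh* control probe sets, a sign of RNA integrity, was 1.17, 1.52 and 0.28, against 0.14 to 0.53 in the other 9 arrays. The basal keratinocyte markers were present in every array, with list means of 11.73 to 12.26.

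**Figure D1:**
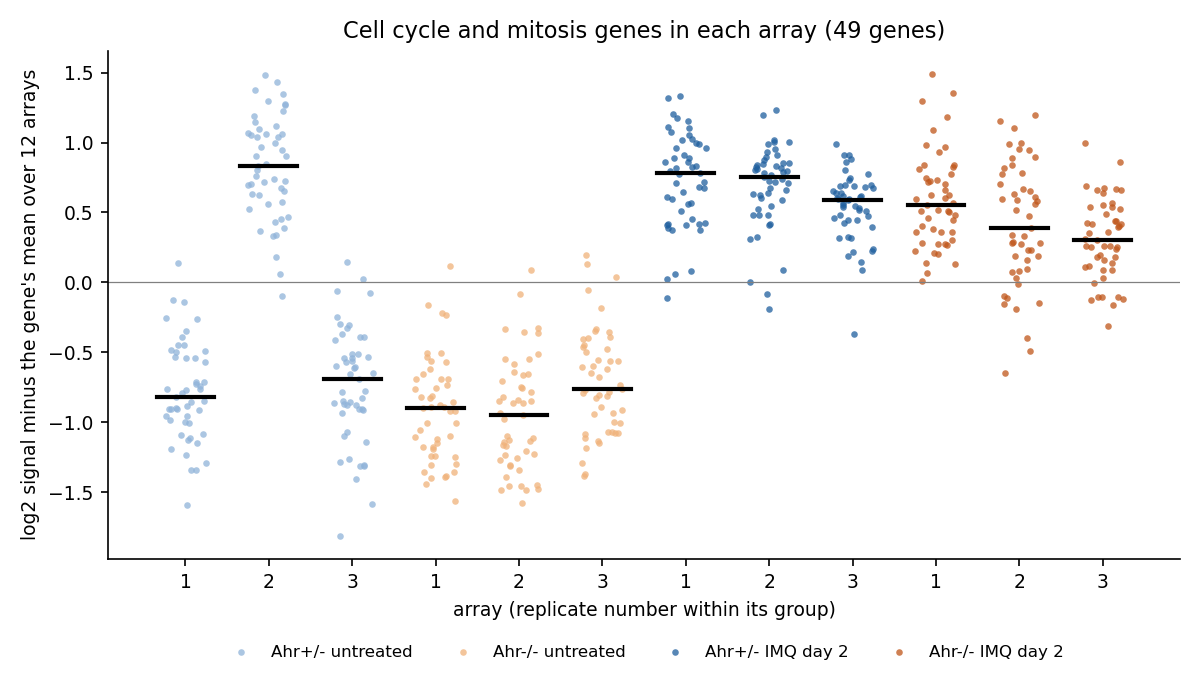
Each point is the log2 signal of 1 of 49 cell cycle genes in 1 array, minus the mean of that gene over 12 arrays (vertical axis); arrays are on the horizontal axis by group, and black lines are medians over the genes. The medians of the 6 IMQ arrays lie between 0.30 and 0.78, those of 5 untreated arrays between -0.95 and -0.69, and that of untreated *Ahr*+/- array 2 at 0.84.

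After 2 days of IMQ, most cell cycle genes were higher than in untreated skin of the same genotype. The mean log2 signal of the 49 members was 7.61 and 7.66 in untreated *Ahr*+/- arrays 1 and 3 and 9.12, 9.08 and 8.93 on IMQ. In *Ahr*-/- skin it was 7.48, 7.45 and 7.68 without treatment and 8.98, 8.80 and 8.70 on IMQ. The follicle-rich array, an untreated one, read 9.21 and so lay above all 6 IMQ arrays, as the plot of the members by array shows.

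A gene was called, here and below, when its fold change was at least 1.5 and its p from limma, adjusted over all 18193 genes by Benjamini and Hochberg, was under 0.05. The comparisons share groups of arrays and are not independent of each other. In *Ahr*-/- skin 33 of 49 members rose on IMQ and none fell, where 10.6% of all genes rose and 12.1% fell. The median difference of the members was 1.27 on the log2 scale, against 0.07 over all genes. The count in *Ahr*-/- skin was 21 without array 1 of that group on IMQ, where 1489 of 18193 genes rose. It was 11 with the *Gapdh* difference as a covariate, where 5.54% of all genes rose. By the rank product, the test of the study's methods, it was 4, where 192 of 18193 genes rose. In *Ahr*+/- skin, 8 of 49 members rose and none fell with all arrays in the fit, where 5.22% of all genes rose and 3.83% fell. These were *Mcm3*, *Mcm4*, *Cdt1*, *Rrm2*, *E2f8*, *Aurka*, *Birc5* and *Tpx2*, and the median difference of the members was 0.92, against -0.01 over all genes. For none falling, no member had an unadjusted p under 0.05 in that direction in either genotype, and the rank product also called none.

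The follicle-rich array decided the count in *Ahr*+/- skin. Without it, 44 of 49 members rose on IMQ and none fell, where 7.09% of all genes rose and 6.3% fell. The median difference of the members became 1.44. In *Ahr*-/- skin 42 members then rose, where 11.5% of all genes did. The differences in *Ahr*-/- skin do not involve that array, and what changed was the spread pooled over the groups. *Ccnd1*, *Cdk2*, *Foxm1* and *Tyms* were not called in either genotype under either fit. With the follicle list mean as a covariate in place of leaving the array out, 42 members rose in *Ahr*+/- and 44 in *Ahr*-/- skin. Over all 18193 genes, 973 and 2111 rose in that fit. Leaving the array out did not make the groups alike in the follicle list. Without it, the list had a median difference of -1.44 on IMQ in *Ahr*+/- skin, and 6 of 23 genes fell, where 6.3% of all genes did.

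The separation of the arrays shows the same dependence. All 3 IMQ arrays lay above all 3 untreated ones for 8 members in *Ahr*+/- skin, a pattern of 15.4% of all genes. Against untreated arrays 1 and 3 alone they lay above for 47 members, all but *Ccnd1* and *Foxm1*, where 23.8% of all genes had this pattern. In *Ahr*-/- skin 43 members were fully separated upward, a pattern of 21.7% of all genes, and the exceptions were *Pcna*, *Tyms*, *Ccne2*, *Cdk2*, *Foxm1* and *Ttk*.

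**Figure D2:**
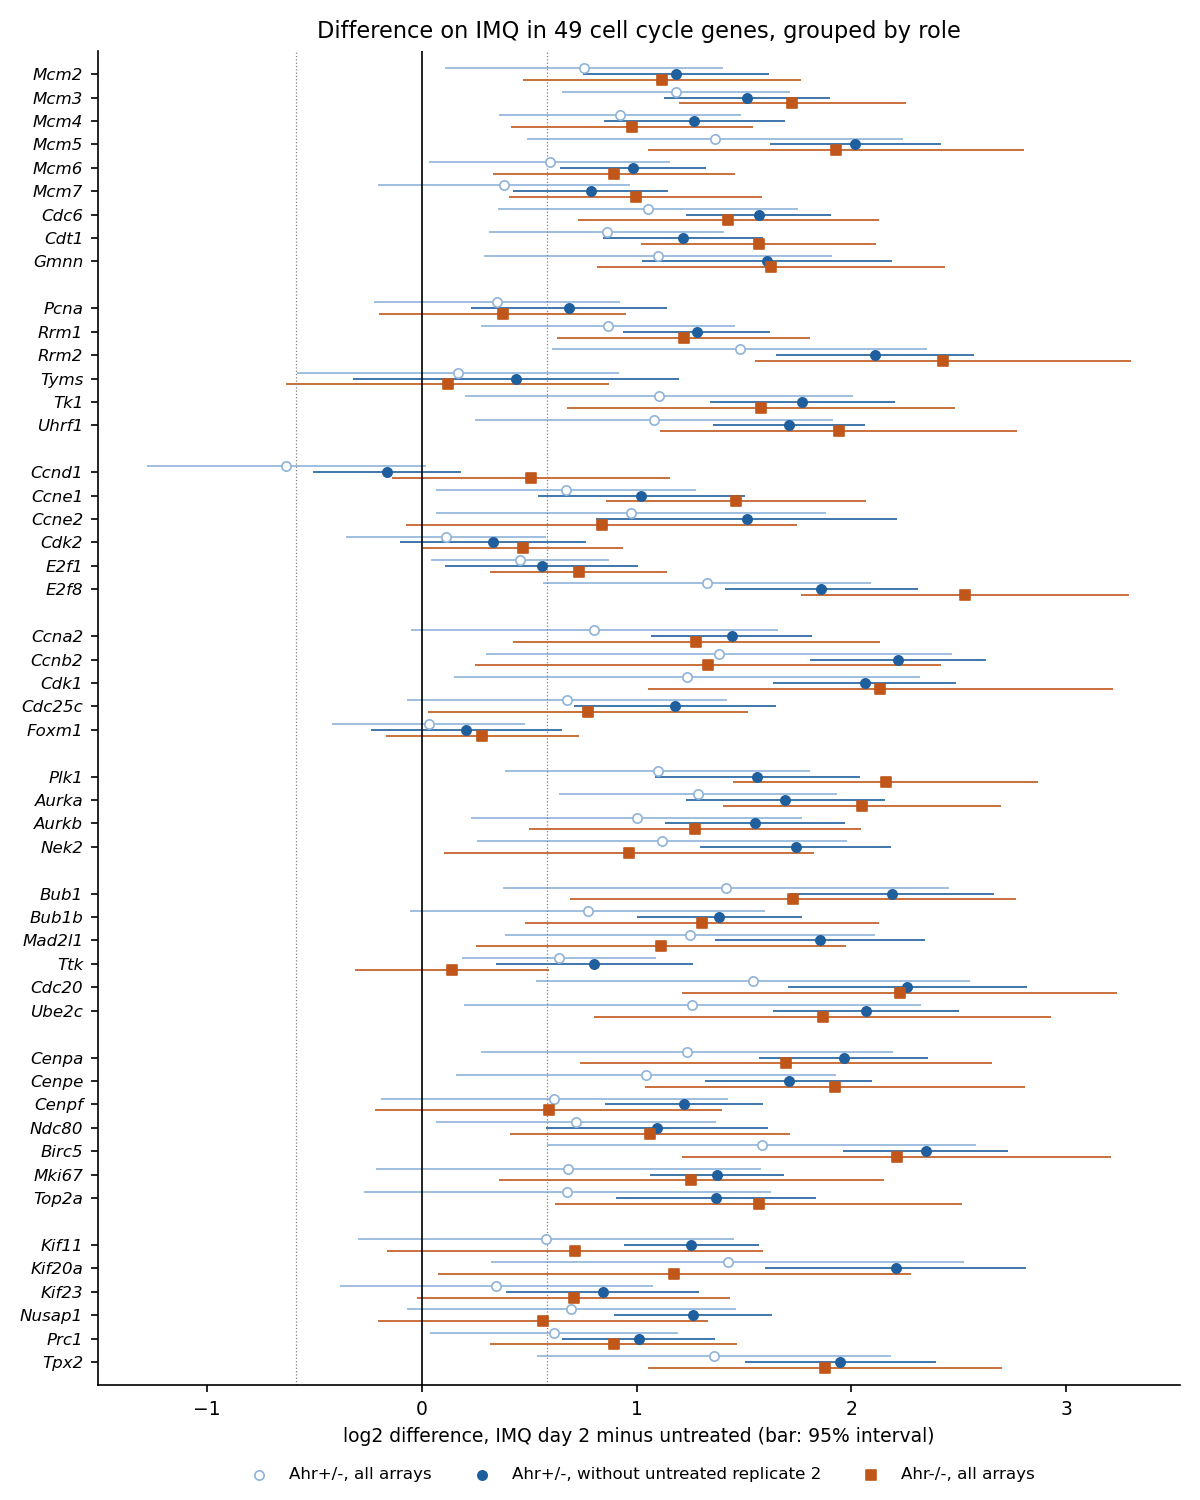
Log2 differences between skin on day 2 of IMQ and untreated skin (horizontal axis) for 49 cell cycle genes (vertical axis, grouped by role), with 95% intervals from limma; dotted lines mark 1.5-fold. Open circles are *Ahr*+/- skin with all arrays (median 0.92), filled circles *Ahr*+/- skin without the follicle-rich array (median 1.44) and squares *Ahr*-/- skin (median 1.27); *Ccnd1*, *Cdk2*, *Foxm1* and *Tyms* were called in neither genotype.

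All genes of replication licensing rose in *Ahr*-/- skin. The group holds *Mcm2* to *Mcm7*, the subunits of the replicative helicase, *Cdc6* and *Cdt1*, which load that helicase at origins, and *Gmnn*, the inhibitor of *Cdt1*. The 9 rose there by 0.89 (*Mcm6*) to 1.93 (*Mcm5*) on the log2 scale. In *Ahr*+/- skin 3 rose with all arrays and all 9 without the follicle-rich array, by 0.79 (*Mcm7*) to 2.02 (*Mcm5*). Signals are given hereafter on the log2 scale in the order of arrays 1, 2 and 3, followed by differences with their standard error (SE) and adjusted p from limma. *Mcm5* read 8.73, 10.48 and 8.32 in untreated *Ahr*+/- skin, 8.02, 8.48 and 8.51 in untreated *Ahr*-/- skin, 10.57, 10.57 and 10.49 in *Ahr*+/- skin on IMQ and 10.28, 10.36 and 10.15 in *Ahr*-/- skin on IMQ. The IMQ arrays of both genotypes overlapped none of the untreated *Ahr*-/- arrays, and the follicle-rich array was as high as those on IMQ. The difference on IMQ was 1.93 (SE 0.40, adjusted p = 0.0039) in *Ahr*-/- skin, and in *Ahr*+/- skin 1.37 (SE 0.40, adjusted p = 0.0503) with all arrays, just outside the call, and 2.02 (SE 0.18, adjusted p = 2.77e-05) without the follicle-rich array.

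*Mcm3* read 7.89, 8.79 and 7.70 in untreated *Ahr*+/- skin, 7.46, 7.77 and 7.67 in untreated *Ahr*-/- skin, 9.33, 9.33 and 9.28 in *Ahr*+/- skin on IMQ and 9.54, 9.50 and 9.02 in *Ahr*-/- skin on IMQ. Here the IMQ arrays lay above every untreated array, the follicle-rich one included. *Mcm3* rose by 1.18 (SE 0.24, adjusted p = 0.00933) in *Ahr*+/- and by 1.73 (SE 0.24, adjusted p = 0.000322) in *Ahr*-/- skin. *Mcm4* read 9.45, 10.38 and 9.24 in untreated *Ahr*+/- skin, 9.11, 9.12 and 9.44 in untreated *Ahr*-/- skin, 10.71, 10.61 and 10.53 in *Ahr*+/- skin on IMQ and 10.44, 9.82 and 10.33 in *Ahr*-/- skin on IMQ. *Mcm4* rose by 0.92 (SE 0.26, adjusted p = 0.0422) and 0.98 (SE 0.26, adjusted p = 0.0145), and its *Ahr*-/- arrays on IMQ were all below the *Ahr*+/- ones. *Cdt1* read 8.64, 9.82 and 8.87 in untreated *Ahr*+/- skin, 8.38, 8.49 and 8.75 in untreated *Ahr*-/- skin, 9.99, 10.05 and 9.86 in *Ahr*+/- skin on IMQ and 10.20, 10.25 and 9.87 in *Ahr*-/- skin on IMQ. All 6 IMQ arrays were above all untreated arrays, and *Cdt1* rose by 0.86 (SE 0.25, adjusted p = 0.0487) in *Ahr*+/- and by 1.57 (SE 0.25, adjusted p = 0.000758) in *Ahr*-/- skin. The probe sets used for *Mcm2*, *Mcm3*, *Mcm5* and *Mcm7* are of kinds that can also bind transcripts of related sequence. The same holds for those of *Aurkb*, *Bub1b*, *Ccne1*, *Cdc20*, *Nek2*, *Prc1* and *Rrm2*.

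DNA synthesis and nucleotide supply followed, with an exception in the best known member. *Rrm1* and *Rrm2* encode the subunits of ribonucleotide reductase, *Tk1* thymidine kinase, *Tyms* thymidylate synthase, *Uhrf1* a factor that keeps DNA methylation on replicated DNA, and *Pcna* the sliding clamp of DNA polymerases. In *Ahr*-/- skin 4 of 6 rose and in *Ahr*+/- skin 1 of 6 with all arrays, or 5 of 6 without the follicle-rich array. *Rrm2* read 8.70, 10.92 and 9.37 in untreated *Ahr*+/- skin, 8.94, 8.98 and 9.01 in untreated *Ahr*-/- skin, 11.40, 11.12 and 10.91 in *Ahr*+/- skin on IMQ and 11.60, 11.45 and 11.16 in *Ahr*-/- skin on IMQ. On IMQ it was higher in every array than in any untreated array but the follicle-rich one, and it rose by 1.48 (SE 0.40, adjusted p = 0.0364) in *Ahr*+/- and by 2.43 (SE 0.40, adjusted p = 0.000925) in *Ahr*-/- skin. *Uhrf1* read 8.00, 9.94 and 8.12 in untreated *Ahr*+/- skin, 7.66, 7.42 and 7.75 in untreated *Ahr*-/- skin, 9.69, 9.91 and 9.71 in *Ahr*+/- skin on IMQ and 9.63, 9.68 and 9.34 in *Ahr*-/- skin on IMQ. It rose by 1.94 (SE 0.38, adjusted p = 0.00282) in *Ahr*-/- skin, and in *Ahr*+/- skin the difference was 1.08 (SE 0.38, adjusted p = 0.097) with all arrays and 1.71 (SE 0.16, adjusted p = 4.02e-05) without the follicle-rich array.

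*Pcna*, which antibodies to its protein made a common marker of proliferation, read 11.53, 12.51 and 11.49 in untreated *Ahr*+/- skin, 11.13, 11.24 and 11.73 in untreated *Ahr*-/- skin, 12.20, 12.21 and 12.18 in *Ahr*+/- skin on IMQ and 11.80, 11.39 and 12.04 in *Ahr*-/- skin on IMQ. Its *Ahr*-/- arrays on and off IMQ overlapped, and the difference there was 0.38 (SE 0.26, adjusted p = 0.324). In *Ahr*+/- skin the difference was 0.35 (SE 0.26, adjusted p = 0.462) with all arrays and 0.68 (SE 0.21, adjusted p = 0.0462) without the follicle-rich array. *Tyms*, the only member with a mean signal under 5, differed by 0.17 (SE 0.35, adjusted p = 0.828) and 0.12 (SE 0.35, adjusted p = 0.827), or by 0.44 (SE 0.35) in *Ahr*+/- skin without the follicle-rich array, and was not called in any comparison.

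The regulators of G1 and of entry into S phase were the most mixed. *Ccne1* and *Ccne2* encode the E cyclins, which activate the kinase encoded by *Cdk2*, *E2f1* encodes an activating and *E2f8* a repressing E2F factor, and *Ccnd1* encodes cyclin D1, which links growth signals to the start of G1. The median difference of the 6 on IMQ was 0.56 in *Ahr*+/- and 0.78 in *Ahr*-/- skin. *E2f8* read 6.73, 8.55 and 7.17 in untreated *Ahr*+/- skin, 6.72, 6.81 and 6.70 in untreated *Ahr*-/- skin, 9.10, 8.82 and 8.53 in *Ahr*+/- skin on IMQ and 9.57, 9.18 and 9.07 in *Ahr*-/- skin on IMQ. It showed the largest rise of all members in *Ahr*-/- skin, 2.53 (SE 0.35, adjusted p = 0.000288), and rose by 1.33 (SE 0.35, adjusted p = 0.0323) in *Ahr*+/- skin. *Ccne1* read 6.54, 7.89 and 7.13 in untreated *Ahr*+/- skin, 6.63, 6.78 and 6.96 in untreated *Ahr*-/- skin, 8.03, 7.84 and 7.71 in *Ahr*+/- skin on IMQ and 8.36, 8.51 and 7.88 in *Ahr*-/- skin on IMQ. It rose by 1.46 (SE 0.28, adjusted p = 0.00225) in *Ahr*-/- skin and differed by 0.67 (SE 0.28, adjusted p = 0.154) in *Ahr*+/- skin, or 1.02 (SE 0.22, adjusted p = 0.00872) without the follicle-rich array.

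*Ccne2* read 6.11, 8.24 and 7.14 in untreated *Ahr*+/- skin, 6.08, 6.06 and 6.86 in untreated *Ahr*-/- skin, 8.35, 7.99 and 8.06 in *Ahr*+/- skin on IMQ and 7.42, 6.71 and 7.38 in *Ahr*-/- skin on IMQ. The *Ahr*-/- arrays on IMQ overlapped the untreated ones of that genotype, and the difference there was 0.84 (SE 0.42, adjusted p = 0.161), which was called without the follicle-rich array (adjusted p = 0.0425 from limma). *E2f1* rose by 0.73 (SE 0.19, adjusted p = 0.0132) in *Ahr*-/- skin and was not called in *Ahr*+/- skin with or without the follicle-rich array. *Ccnd1* read 9.87, 11.35 and 10.03 in untreated *Ahr*+/- skin, 9.51, 9.65 and 9.83 in untreated *Ahr*-/- skin, 9.90, 9.82 and 9.64 in *Ahr*+/- skin on IMQ and 10.21, 10.29 and 10.01 in *Ahr*-/- skin on IMQ. On IMQ its *Ahr*+/- arrays overlapped the untreated ones at their lower end, while its *Ahr*-/- arrays lay above the untreated ones of their genotype. The difference was -0.63 (SE 0.30, adjusted p = 0.214) in *Ahr*+/- skin, or -0.16 (SE 0.16, adjusted p = 0.573) without the follicle-rich array. It was 0.51 (SE 0.30, adjusted p = 0.235) in *Ahr*-/- skin, and *Ccnd1* was the only member with a difference below 0 in either genotype. A dimmer probe set of *Ccnd1* differed from the one used, with -0.90 in *Ahr*+/- skin against arrays 1 and 3, where the set used gave -0.16, and with -0.39 in *Ahr*-/- skin. A set about as bright as the one used (mean signal 10 against 10.01) gave 0.06 and 0.32. The sign against arrays 1 and 3 thus depended on the set. Between genotypes on day 2, the dimmer set differed by 0.15 and the bright one by 0.14, against 0.38 for the set used.

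Among the regulators of G2 and of entry into mitosis, *Ccna2* and *Ccnb2* encode cyclins, *Cdk1* the kinase they activate, *Cdc25c* a phosphatase that releases that kinase, and *Foxm1* a transcription factor of late cell cycle genes. *Cdk1* read 7.39, 9.95 and 7.54 in untreated *Ahr*+/- skin, 7.29, 7.10 and 7.75 in untreated *Ahr*-/- skin, 9.73, 9.48 and 9.37 in *Ahr*+/- skin on IMQ and 9.66, 9.52 and 9.37 in *Ahr*-/- skin on IMQ. On IMQ both genotypes reached the same range, and the follicle-rich array was the highest of the 12. *Cdk1* rose by 2.14 (SE 0.50, adjusted p = 0.00735) in *Ahr*-/- skin and differed by 1.24 (SE 0.50, adjusted p = 0.143) in *Ahr*+/- skin with all arrays and by 2.06 (SE 0.20, adjusted p = 4e-05) without the follicle-rich one. *Ccnb2* read 7.38, 9.67 and 6.97 in untreated *Ahr*+/- skin, 7.37, 7.18 and 7.62 in untreated *Ahr*-/- skin, 9.20, 9.61 and 9.37 in *Ahr*+/- skin on IMQ and 8.86, 8.61 and 8.69 in *Ahr*-/- skin on IMQ. Its difference of 1.38 (SE 0.50, adjusted p = 0.103) in *Ahr*+/- and 1.33 (SE 0.50, adjusted p = 0.0662) in *Ahr*-/- skin passed in neither genotype with all arrays, and in both without the follicle-rich array, at 2.22 (SE 0.19, adjusted p = 1.67e-05) in *Ahr*+/- skin.

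*Ccna2* read 8.24, 10.24 and 8.40 in untreated *Ahr*+/- skin, 8.16, 7.88 and 8.29 in untreated *Ahr*-/- skin, 9.73, 9.85 and 9.71 in *Ahr*+/- skin on IMQ and 9.61, 9.39 and 9.16 in *Ahr*-/- skin on IMQ. It rose by 1.28 (SE 0.39, adjusted p = 0.0289) in *Ahr*-/- skin. In *Ahr*+/- skin the difference was 0.80 (SE 0.39, adjusted p = 0.231), or 1.44 (SE 0.17, adjusted p = 0.000198) without the follicle-rich array. *Foxm1* differed by 0.03 (SE 0.21, adjusted p = 0.954) in *Ahr*+/- skin, or 0.21 (SE 0.21) without the follicle-rich array, and by 0.28 (SE 0.21, adjusted p = 0.345) in *Ahr*-/- skin. It was not called, while 25 of the other 27 G2 and M phase members measured rose in *Ahr*-/- skin without the follicle-rich array. The probe sets of *Foxm1* differed in this. A dimmer set (mean signal 5.86 against 7.515) gave 0.98 in *Ahr*-/- skin and 0.90 in *Ahr*+/- skin against untreated arrays 1 and 3. Further sets gave 0.44 and -0.03 in *Ahr*-/- skin and 0.15 and 0.18 in *Ahr*+/- skin.

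The mitotic kinases had the highest median in *Ahr*-/- skin, 1.66, and 1.11 in *Ahr*+/- skin. *Plk1* and *Aurka* drive spindle assembly and mitotic entry, *Aurkb* corrects attachments of chromosomes to the spindle, and *Nek2* separates centrosomes. *Plk1* read 6.87, 8.28 and 6.90 in untreated *Ahr*+/- skin, 6.45, 6.52 and 6.62 in untreated *Ahr*-/- skin, 8.64, 8.47 and 8.23 in *Ahr*+/- skin on IMQ and 8.93, 8.95 and 8.18 in *Ahr*-/- skin on IMQ. It rose by 2.16 (SE 0.33, adjusted p = 0.00052) in *Ahr*-/- skin and differed by 1.10 (SE 0.33, adjusted p = 0.0522) in *Ahr*+/- skin, or 1.56 (SE 0.22, adjusted p = 0.000604) without the follicle-rich array. *Aurka* read 6.63, 7.86 and 6.65 in untreated *Ahr*+/- skin, 6.13, 6.18 and 6.70 in untreated *Ahr*-/- skin, 8.60, 8.40 and 7.99 in *Ahr*+/- skin on IMQ and 8.49, 8.47 and 8.20 in *Ahr*-/- skin on IMQ. All its IMQ arrays were above all untreated arrays, and it rose by 1.28 (SE 0.30, adjusted p = 0.0174) in *Ahr*+/- and 2.05 (SE 0.30, adjusted p = 0.000395) in *Ahr*-/- skin. *Nek2* read 7.15, 8.67 and 6.44 in untreated *Ahr*+/- skin, 6.96, 7.07 and 6.92 in untreated *Ahr*-/- skin, 8.58, 8.56 and 8.47 in *Ahr*+/- skin on IMQ and 8.23, 7.81 and 7.81 in *Ahr*-/- skin on IMQ. It was not called with all arrays (1.12 with SE 0.40, adjusted p = 0.097 and 0.97 with SE 0.40, adjusted p = 0.0904), and was in both genotypes without the follicle-rich array, at 1.74 (SE 0.20, adjusted p = 0.000179) in *Ahr*+/- skin.

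The spindle checkpoint, which holds anaphase back until chromosomes are attached, is represented by *Bub1*, *Bub1b*, *Mad2l1* and *Ttk*, and the anaphase-promoting complex that ends it by *Cdc20*, its activator, and *Ube2c*, its ubiquitin-conjugating enzyme. *Cdc20* read 9.09, 11.00 and 8.62 in untreated *Ahr*+/- skin, 9.01, 8.80 and 9.01 in untreated *Ahr*-/- skin, 11.52, 11.05 and 10.76 in *Ahr*+/- skin on IMQ and 11.55, 11.20 and 10.75 in *Ahr*-/- skin on IMQ. It rose by 2.22 (SE 0.47, adjusted p = 0.00393) in *Ahr*-/- skin and differed by 1.54 (SE 0.47, adjusted p = 0.0545) in *Ahr*+/- skin, or 2.26 (SE 0.26, adjusted p = 0.000139) without the follicle-rich array. *Bub1b* read 6.80, 8.82 and 7.17 in untreated *Ahr*+/- skin, 6.79, 6.56 and 6.97 in untreated *Ahr*-/- skin, 8.32, 8.47 and 8.32 in *Ahr*+/- skin on IMQ and 8.07, 8.26 and 7.90 in *Ahr*-/- skin on IMQ. It rose by 1.30 (SE 0.38, adjusted p = 0.0226) in *Ahr*-/- skin and differed by 0.77 (SE 0.38, adjusted p = 0.233) in *Ahr*+/- skin, or 1.39 (SE 0.18, adjusted p = 0.000298) without the follicle-rich array. *Ttk* read 7.56, 7.89 and 7.22 in untreated *Ahr*+/- skin, 7.59, 7.50 and 8.03 in untreated *Ahr*-/- skin, 8.23, 8.31 and 8.04 in *Ahr*+/- skin on IMQ and 8.19, 7.63 and 7.72 in *Ahr*-/- skin on IMQ. The *Ahr*-/- arrays of *Ttk* overlapped, at 0.14 (SE 0.21, adjusted p = 0.653), whereas in *Ahr*+/- skin the difference was 0.64 (SE 0.21, adjusted p = 0.0725), and 0.80 (SE 0.21, adjusted p = 0.0228) without the follicle-rich array.

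Kinetochore and chromosome genes included *Mki67*, whose protein Ki-67 coats mitotic chromosomes and marks cycling cells, and *Top2a*, the topoisomerase that disentangles DNA. *Mki67* read 9.46, 11.66 and 9.69 in untreated *Ahr*+/- skin, 9.31, 9.12 and 9.23 in untreated *Ahr*-/- skin, 10.91, 11.04 and 10.91 in *Ahr*+/- skin on IMQ and 10.37, 10.56 and 10.49 in *Ahr*-/- skin on IMQ. Every IMQ array was above every untreated array but the follicle-rich one, which exceeded them all, and the *Ahr*-/- arrays on IMQ were below the *Ahr*+/- ones. *Mki67* rose by 1.26 (SE 0.41, adjusted p = 0.0387) in *Ahr*-/- skin and differed by 0.68 (SE 0.41, adjusted p = 0.344) in *Ahr*+/- skin with all arrays and by 1.38 (SE 0.14, adjusted p = 7.1e-05) without the follicle-rich array. *Top2a* read 8.80, 11.18 and 9.39 in untreated *Ahr*+/- skin, 8.92, 8.35 and 8.80 in untreated *Ahr*-/- skin, 10.64, 10.44 and 10.32 in *Ahr*+/- skin on IMQ and 10.40, 10.28 and 10.10 in *Ahr*-/- skin on IMQ. It rose by 1.57 (SE 0.44, adjusted p = 0.0181) in *Ahr*-/- skin, and in *Ahr*+/- skin differed by 0.68 (SE 0.44, adjusted p = 0.378), or 1.37 (SE 0.21, adjusted p = 0.00122) without the follicle-rich array.

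**Figure D3:**
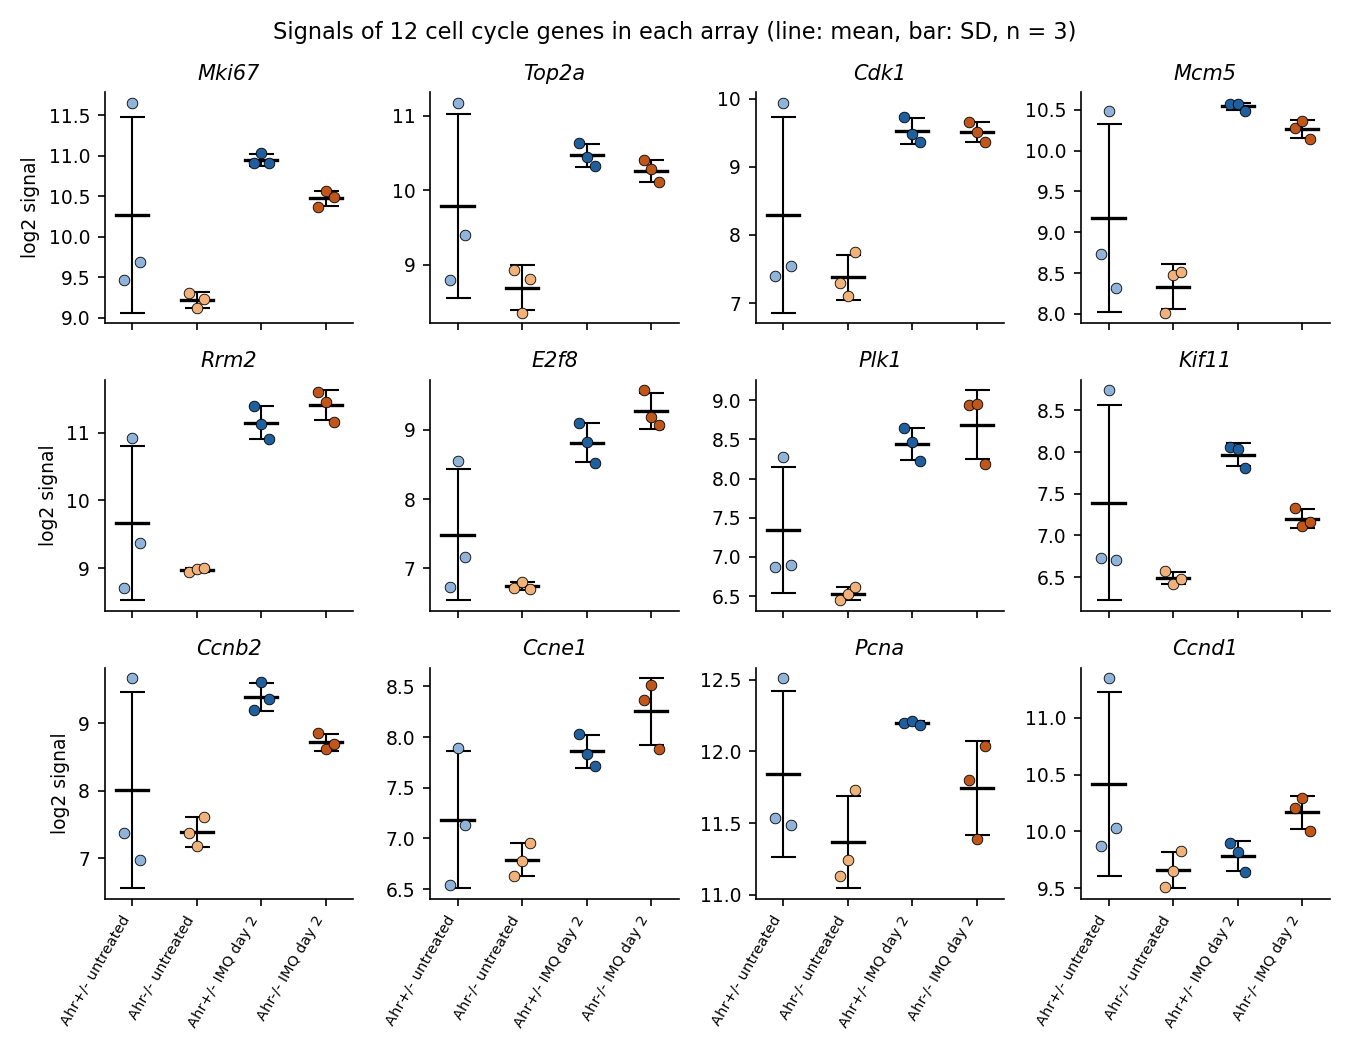
Log2 signals (vertical axes) of 12 cell cycle genes in the 3 arrays of each of 4 groups (horizontal axis); points are arrays, lines group means and bars 1 SD. The highest point of untreated *Ahr*+/- skin is the follicle-rich array in all 12 panels, for example 11.66 for *Mki67*.

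*Birc5*, which encodes survivin of the chromosomal passenger complex, read 7.04, 9.35 and 7.06 in untreated *Ahr*+/- skin, 6.94, 6.90 and 7.30 in untreated *Ahr*-/- skin, 9.55, 9.38 and 9.26 in *Ahr*+/- skin on IMQ and 9.47, 9.27 and 9.04 in *Ahr*-/- skin on IMQ. It had the largest rise of the members in *Ahr*+/- skin, 1.58 (SE 0.46, adjusted p = 0.0478), and rose by 2.21 (SE 0.46, adjusted p = 0.00383) in *Ahr*-/- skin. *Cenpe*, a kinetochore motor, read 6.44, 8.45 and 6.48 in untreated *Ahr*+/- skin, 6.28, 5.91 and 6.32 in untreated *Ahr*-/- skin, 8.28, 8.24 and 7.99 in *Ahr*+/- skin on IMQ and 8.01, 8.35 and 7.93 in *Ahr*-/- skin on IMQ. *Ndc80*, the microtubule-binding subunit of the outer kinetochore, read 5.54, 7.02 and 6.23 in untreated *Ahr*+/- skin, 5.01, 5.52 and 5.84 in untreated *Ahr*-/- skin, 7.01, 6.89 and 7.03 in *Ahr*+/- skin on IMQ and 6.61, 6.46 and 6.49 in *Ahr*-/- skin on IMQ. Both rose in *Ahr*-/- skin, by 1.92 (SE 0.41, adjusted p = 0.00422) and 1.06 (SE 0.30, adjusted p = 0.0198), and their differences in *Ahr*+/- skin were 1.04 (SE 0.41, adjusted p = 0.13) and 0.72 (SE 0.30, adjusted p = 0.159). Both were called there without the follicle-rich array, at 1.71 (SE 0.18, adjusted p = 7.29e-05) and 1.10 (SE 0.24, adjusted p = 0.00895).

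Genes of the spindle and of cytokinesis had the lowest share of calls in *Ahr*-/- skin, 2 of 6 (*Prc1* and *Tpx2*), and 1 of 6 passed in *Ahr*+/- skin with all arrays. These counts became 5 and 6 of 6 without the follicle-rich array. *Kif11*, *Kif20a* and *Kif23* encode motor proteins, and *Nusap1*, *Prc1* and *Tpx2* proteins that bundle or nucleate microtubules. *Tpx2* read 6.35, 8.28 and 6.67 in untreated *Ahr*+/- skin, 6.37, 6.08 and 6.63 in untreated *Ahr*-/- skin, 8.75, 8.49 and 8.14 in *Ahr*+/- skin on IMQ and 8.27, 8.24 and 8.21 in *Ahr*-/- skin on IMQ. *Tpx2* rose by 1.36 (SE 0.38, adjusted p = 0.0409) in *Ahr*+/- and by 1.88 (SE 0.38, adjusted p = 0.0032) in *Ahr*-/- skin. *Kif11* read 6.73, 8.74 and 6.70 in untreated *Ahr*+/- skin, 6.57, 6.42 and 6.48 in untreated *Ahr*-/- skin, 8.06, 8.04 and 7.81 in *Ahr*+/- skin on IMQ and 7.33, 7.11 and 7.16 in *Ahr*-/- skin on IMQ. Its *Ahr*-/- arrays on IMQ lay between the untreated arrays of their genotype and the *Ahr*+/- arrays on IMQ, with a difference of 0.71 (SE 0.40, adjusted p = 0.216) in *Ahr*-/- skin. In *Ahr*+/- skin it was 0.58 (SE 0.40, adjusted p = 0.42) with all arrays and 1.25 (SE 0.14, adjusted p = 0.000158), a call, without the follicle-rich array. Other probe sets of *Kif11*, with mean signals of 6.93 and 5.99 against 7.26, gave 1.64 and 0.45 in *Ahr*-/- skin. Between genotypes on day 2 they differed by -0.38 and -0.69, against -0.77 for the set used.

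In untreated skin, the members read lower in *Ahr*-/- than in *Ahr*+/- arrays on average, and none passed. The median difference was -0.64, against 0.02 over all genes, and 47 of 49 members had a value below 0. Limma called 0 of 49 in either direction, where 0.0055% of all genes were higher and 0% lower, and the rank product called none; 12 members had an unadjusted p under 0.05, all lower. Without the follicle-rich array the median was -0.14, 35 of 49 members were below 0 and 2 had an unadjusted p under 0.05 (*Uhrf1* and *Mki67*), with 0 called, where 0.0165% of all genes were higher and 0.0055% lower. With the follicle list mean as a covariate the median was 0.28. The size of the difference between untreated genotypes thus depended strongly on 1 array. The follicle list still differed without that array. Its mean was 7.70 and 7.95 in untreated *Ahr*+/- arrays 1 and 3 and 6.09, 6.93 and 5.92 in the untreated *Ahr*-/- arrays. Its median difference was then -1.565, with 0 of 23 genes called. The part of this remaining difference in the cell cycle values was not tested.

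*Uhrf1* differed by -1.08 (SE 0.38, adjusted p = 0.725) in untreated skin, *Ndc80* by -0.81 (SE 0.30, adjusted p = 0.725) and *Ccnd1* by -0.76 (SE 0.30, adjusted p = 0.737). Without the follicle-rich array these values were -0.45 (SE 0.16), -0.43 (SE 0.24) and -0.29 (SE 0.16). All untreated *Ahr*-/- arrays lay below all untreated *Ahr*+/- arrays for 8 members, a pattern of 3.78% of all genes. These were *Mcm7*, *Uhrf1*, *Ccnd1*, *Plk1*, *Bub1*, *Cenpe*, *Mki67* and *Kif11*. Differences for *Cdt1* (-0.57 with SE 0.25, adjusted p = 0.756), *Plk1* (-0.82 with SE 0.33, adjusted p = 0.737), *Kif11* (-0.90 with SE 0.40, adjusted p = 0.756), *Ccna2* (-0.85 with SE 0.39, adjusted p = 0.756) and *Bub1b* (-0.82 with SE 0.38, adjusted p = 0.756) were likewise not called. Without the follicle-rich array these were -0.21 (SE 0.17), -0.35 (SE 0.22), -0.23 (SE 0.14), -0.21 (SE 0.17) and -0.21 (SE 0.18).

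The follicle-rich array itself exceeded the mean of the other untreated *Ahr*+/- arrays by a median of 1.62 over the members on the log2 scale, from 0.30 for *E2f1* to 2.50 for *Ccnb2*. It was the highest of the 6 untreated arrays for 47 members, all but *E2f1* and *Ttk*, where it was so for 23.6% of all genes. It was the highest of all 12 arrays for 25 members, against 11.2% of all genes, and above all 3 IMQ-treated *Ahr*+/- arrays for 26, against 37.7%. Those 26 comprised 17 of 28 G2 and M phase members, *Mki67*, *Top2a* and *Kif11* among them, and 9 of 21 G1 and S phase members, *Pcna* and *Ccnd1* among them. The median excess was 1.85 for the G2 and M phase and 1.25 for the G1 and S phase members. It is a single array, so these values carry no error. The share of hair follicle cells in it was not measured, and its part in these values was not tested beyond leaving the array out and using the follicle list as a covariate.

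**Figure D4:**
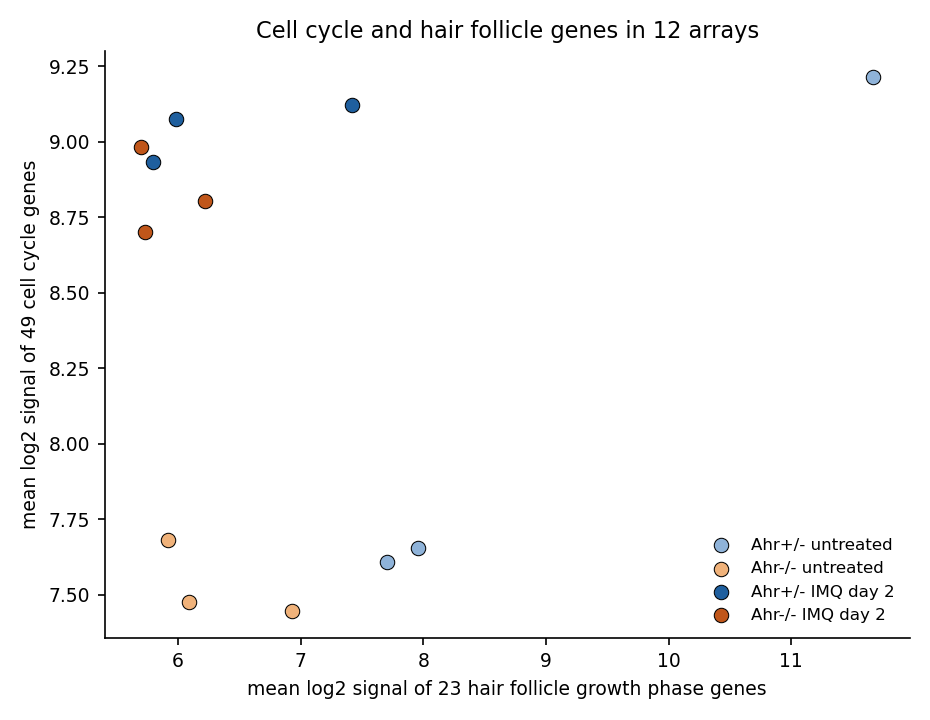
Mean log2 signal of 49 cell cycle genes (vertical axis) against that of 23 hair follicle growth phase genes (horizontal axis) in 12 arrays, coloured by group. One untreated *Ahr*+/- array stands at 11.67 and 9.21, and in the other 11 arrays the IMQ arrays have cell cycle means of 8.70 to 9.12 and the untreated ones 7.45 to 7.68 with follicle means of 5.70 to 7.95.

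On day 2 of IMQ, cell cycle genes read slightly lower without AhR, and none passed with all arrays. The median difference was -0.21, against 0.06 over all genes, and 36 of 49 members were below 0. Limma called 0 members in either direction, against a background of 2.12% (higher) and 1.86% (lower), and the rank product called none. At an unadjusted p under 0.05 there were 0 higher and 1 lower, *Ccne2*, at -0.96 (SE 0.42, adjusted p = 0.213). The 3 *Ahr*-/- arrays all lay below the 3 *Ahr*+/- arrays for 19 members, a pattern of 15% of all genes. They all lay above for 1, *Ccnd1*, a pattern of 18% of all genes. Of the 19, 13 were among the 28 G2 and M phase members and 6 among the 21 G1 and S phase members, and the median differences of these classes were -0.33 and -0.12. The lower reading was not kept with the follicle list mean as a covariate. The median of the members was then -0.02, and 22 of 49 were above 0. In that fit 4 members were higher and 2 lower at an unadjusted p under 0.05 from limma. The calls were 1 higher and 0 lower, where 531 and 738 of 18193 genes were.

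The follicle-rich array is in neither of these groups, but it widens the spread that limma pools over all groups. Without it, 4 members were lower in *Ahr*-/- skin and 0 higher, where 3.66% of all genes were lower and 3.2% higher. They were *Kif11* at -0.77 (SE 0.13, adjusted p = 0.0044), *Nusap1* at -0.62 (SE 0.15, adjusted p = 0.0291), *Ccnb2* at -0.67 (SE 0.17, adjusted p = 0.0324) and *Bub1* at -0.72 (SE 0.20, adjusted p = 0.044), all of G2 and M phase. *Nusap1* read 7.40, 9.22 and 7.66 in untreated *Ahr*+/- skin, 7.60, 7.46 and 7.76 in untreated *Ahr*-/- skin, 8.77, 8.80 and 8.80 in *Ahr*+/- skin on IMQ and 8.45, 8.02 and 8.05 in *Ahr*-/- skin on IMQ. *Bub1* read 6.35, 8.87 and 6.74 in untreated *Ahr*+/- skin, 6.35, 6.29 and 6.22 in untreated *Ahr*-/- skin, 8.92, 8.79 and 8.50 in *Ahr*+/- skin on IMQ and 8.34, 7.58 and 8.13 in *Ahr*-/- skin on IMQ. *Mki67* passed the adjusted p, at -0.48 (SE 0.13, adjusted p = 0.0425), and not the fold. A fit to the day 2 arrays alone, which uses no untreated array, also called 4 members lower and 0 higher, where 2.91% of all genes were lower and 3.09% higher. They were *Kif11* (adjusted p = 0.0159 from limma), *Ccnb2* (0.0350), *Nusap1* (0.0433) and the G1 and S phase gene *Ccne2*, and *Bub1* was not among them (0.0760).

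These 4 calls were not kept in every setting. With all arrays and the follicle list mean as a covariate, *Kif11*, *Nusap1*, *Ccnb2* and *Bub1* were not called. In that fit *Kif11* differed by -0.55 (SE 0.21, adjusted p = 0.141 from limma). *Ahr*-/- arrays 1 and 2 were those with the large *Gapdh* 3′ to 5′ difference. With this difference as a covariate and without the follicle-rich array, 0 members were called, and *Kif11* differed by -0.75 (SE 0.19, adjusted p = 0.118 from limma). With *Ahr*-/- array 3 alone for its group and without the follicle-rich array, *Kif11* differed by -0.81, a value that rests on 1 array of that group. With a gene's probe sets averaged and without the follicle-rich array, *Nusap1* differed by -0.19 (SE 0.15, adjusted p = 0.473 from limma). In that setting *Bub1* was not called either, whereas *Kif11* (-0.61, SE 0.11, adjusted p = 0.00886 from limma) and *Ccnb2* (-0.67, SE 0.16, adjusted p = 0.0294) were.

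For the members most studied as proliferation markers, the genotype difference on day 2 had wide intervals. With all arrays, the 95% interval from limma was -1.37 to 0.42 for *Mki67*, -1.15 to 0.74 for *Top2a* and -1.10 to 1.07 for *Cdk1*. With that array left out it was -0.76 to -0.20, -0.62 to 0.21 and -0.39 to 0.37. A 1.5-fold lower level lay inside all 3 intervals with all arrays, and without the follicle-rich array inside those of *Mki67* and *Top2a* and outside that of *Cdk1*. The lowest unadjusted p values of the other role groups belonged to *Mcm4* (-0.42 with SE 0.26, adjusted p = 0.383), *Pcna* (-0.45 with SE 0.26, adjusted p = 0.349), *Nek2* (-0.59 with SE 0.40, adjusted p = 0.419), *Ttk* (-0.35 with SE 0.21, adjusted p = 0.363) and *Ndc80* (-0.46 with SE 0.30, adjusted p = 0.406). Members that read higher in *Ahr*-/- skin included *E2f8* at 0.46 (SE 0.35, adjusted p = 0.479), *Ccne1* at 0.39 (SE 0.28, adjusted p = 0.442) and *Ccnd1* at 0.38 (SE 0.30, adjusted p = 0.488).

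**Figure D5:**
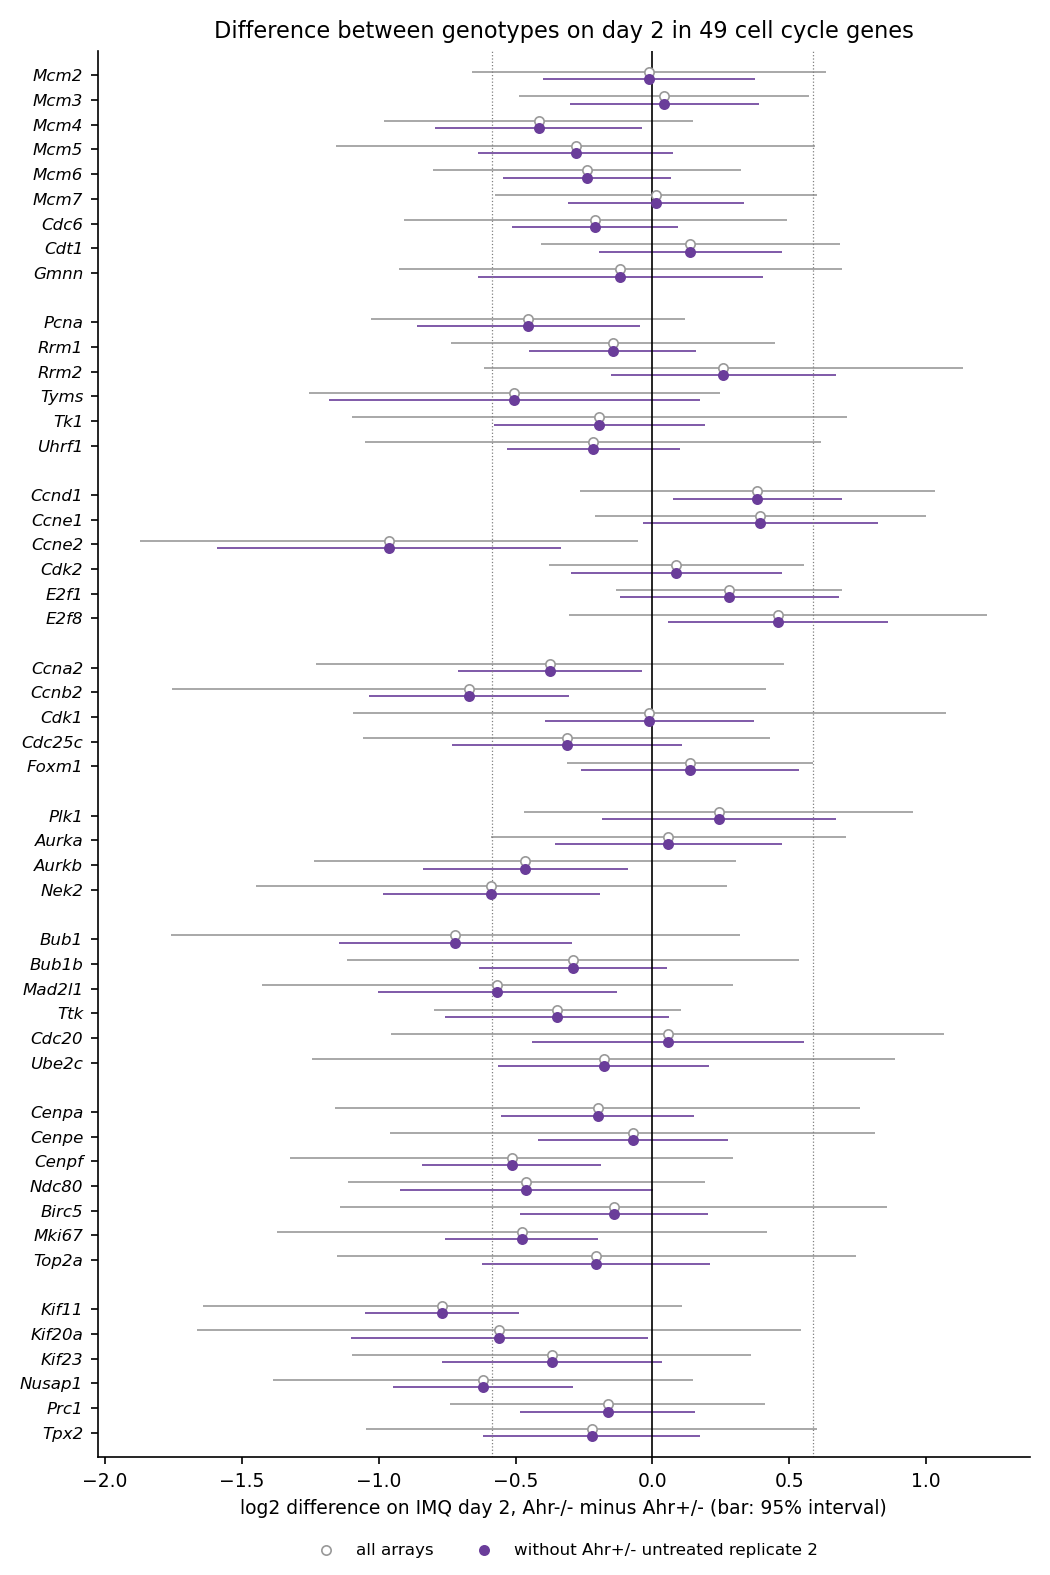
Log2 differences between *Ahr*-/- and *Ahr*+/- skin on day 2 of IMQ (horizontal axis) for 49 cell cycle genes (vertical axis, grouped by role), with 95% intervals from limma with all arrays (open) and without the follicle-rich array (filled); dotted lines mark 1.5-fold. The median is -0.21, *Ccne2* is lowest at -0.96 and *E2f8* highest at 0.46.

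The difference between the genotypes in their response to IMQ, the interaction of the design, was called for 0 members in either direction, where 0.539% of all genes were higher and 0.786% lower. Its median was 0.38 with all arrays, against 0.05 over all genes, with 3 members at an unadjusted p under 0.05: *Ccnd1* at 1.14 (SE 0.42, adjusted p = 0.19), *E2f8* at 1.20 (SE 0.50, adjusted p = 0.234) and *Plk1* at 1.06 (SE 0.46, adjusted p = 0.259). Without the follicle-rich array the median was -0.09 and 0 were called, where 0.737% of all genes were higher and 0.665% lower. The unadjusted p was then under 0.05 for 2 members in the upward direction, *Ccnd1* and *E2f8*, and for 8 downward, with *Ccnb2* at -0.88 (SE 0.25, adjusted p = 0.105). *Ccnd1* then differed by 0.67 (SE 0.21, adjusted p = 0.137). The sign of the median therefore followed 1 untreated array. With the follicle list mean as a covariate the median was -0.37, and 10 of 49 members were above 0. In that fit 0 members were higher and 6 lower at an unadjusted p under 0.05 from limma. It called 0 members, where 39 of 18193 genes were higher and 26 lower. For *Rrm2*, *Cdk1*, *Cenpe*, *Cdt1*, *Tpx2* and *Ttk*, which had the lowest p of the remaining groups, the values were 0.95 (SE 0.57), 0.90 (SE 0.71), 0.88 (SE 0.58), 0.71 (SE 0.36), 0.52 (SE 0.54) and -0.50 (SE 0.29) with all arrays. They were 0.32 (SE 0.28), 0.07 (SE 0.26), 0.22 (SE 0.24), 0.35 (SE 0.23), -0.07 (SE 0.27) and -0.66 (SE 0.28) without the follicle-rich one.

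Other genes of the same phases, from lists set beside the members, moved in the same direction on IMQ. Of 46 further G1 and S phase genes, 9 rose and 1 fell in *Ahr*+/- skin and 29 rose and 1 fell in *Ahr*-/- skin, beside the shares of 5.22% and 10.6% of all genes that rose. With the *Gapdh* difference as a covariate, 3 and 11 of the 46 rose. Of all 18193 genes, 892 rose in *Ahr*+/- skin and 5.54% in *Ahr*-/- skin in that fit. When the follicle-rich array was left out, 30 rose and 1 fell in each genotype, where 7.09% and 11.5% of all genes rose. Among the 46, *E2f7*, a repressing E2F factor like *E2f8*, rose by 1.77 (SE 0.36, adjusted p = 0.00861 from limma) in *Ahr*+/- and by 3.15 (SE 0.36, adjusted p = 6.86e-05) in *Ahr*-/- skin. *E2f7* was also higher in the *Ahr*-/- group on day 2 once the follicle-rich array was left out, by 0.95 (SE 0.20, adjusted p = 0.0154 from limma). The exonuclease gene *Exo1* rose by 1.58 (SE 0.41) and 2.41 (SE 0.41), and *Dbf4*, the activating partner of a replication kinase, by 1.32 (SE 0.38) and 1.92 (SE 0.38).

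Of 67 further G2 and M phase genes, 8 rose in *Ahr*+/- and 38 in *Ahr*-/- skin with all arrays. Over all genes 5.22% and 10.6% rose. Without the follicle-rich array 50 and 48 of the 67 rose, beside 7.09% and 11.5% of all genes. None of the 67 fell in either fit. With the *Gapdh* difference as a covariate 4 of the 67 rose in each genotype. These counts lay near the shares of all genes in that fit, 892 of 18193 in *Ahr*+/- and 5.54% in *Ahr*-/- skin. *Trip13*, a checkpoint ATPase, rose by 1.83 (SE 0.34, adjusted p = 0.00544 from limma) and 2.50 (SE 0.34, adjusted p = 0.000253). *Tacc3*, a spindle protein, rose by 1.39 (SE 0.35) and 2.07 (SE 0.35). On day 2, *Nek6*, a mitotic kinase gene, was higher in *Ahr*-/- skin by 1.32 (SE 0.25, adjusted p = 0.0118 from limma), and it was the only gene of both lists with a called difference of response, 1.76 (SE 0.35, adjusted p = 0.0342). With the *Gapdh* difference as a covariate, 0 genes of both lists were called on day 2 or for the difference of response, *Nek6* included. On day 2 and without the follicle-rich array, 7 of the 67 were lower and 1 higher in *Ahr*-/- skin. Over all genes 3.66% were lower and 3.2% higher. Among the 7 were *Kif18a* at -1.03 (SE 0.23), *Depdc1a* at -0.89 (SE 0.20) and *Cenph* at -0.81 (SE 0.19).

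Of 27 inhibitors of the cycle and genes of quiescent cells, 5 fell in *Ahr*+/- and 8 fell and 2 rose in *Ahr*-/- skin on IMQ, where 3.83% of all genes fell in *Ahr*+/- skin and 12.1% fell and 10.6% rose in *Ahr*-/- skin. *Cdkn2b*, an inhibitor of the cyclin D kinases, fell in both, with -0.95 (SE 0.21, adjusted p = 0.0125 from limma) and -1.43 (SE 0.21, adjusted p = 0.000381). *Cdkn1b*, which encodes p27, fell in *Ahr*-/- skin by 1.64 on the log2 scale (SE 0.26, adjusted p = 0.000751 from limma), and *Cdkn1c* fell in *Ahr*+/- skin by 0.84 (SE 0.16, adjusted p = 0.00688). On day 2, *Gadd45a* and *Gadd45b*, genes of growth arrest after damage, were higher in *Ahr*-/- skin by 1.05 (SE 0.22) and 0.66 (SE 0.17), and neither was called with the *Gapdh* difference as a covariate. The median difference of the list was -0.15 and -0.23, so these counts describe single genes.

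Markers of some other cells differed in the same comparisons. The mean of 5 hyperproliferative keratinocyte genes was 7.43 to 8.34 in untreated and 13.54 to 13.98 in IMQ-treated arrays of both genotypes. That of 8 differentiating keratinocyte genes was 10.31 to 11.71 in *Ahr*+/- and 9.24 to 9.99 in *Ahr*-/- arrays on IMQ. That of 10 neutrophil genes was 6.65 to 7.35 and 8.40 to 8.62. On IMQ 8 of the 10 were higher in every *Ahr*-/- array than in any *Ahr*+/- array, a pattern of 18% of all genes. In *Ahr*+/- skin the median difference of the 10 on IMQ was 0.04, and 3 rose, where 5.22% of all genes did. On day 2, with the *Gapdh* difference as a covariate, 0 of the neutrophil and 0 of the differentiating keratinocyte genes were called. In that fit 27 of 18193 genes were higher and 0 lower. Basal keratinocyte means were 12.02 to 12.23 and 11.81 to 12.09, which overlap. Of these 8 genes, 3 rose and 2 fell on IMQ in each genotype, so the mean hides opposite changes. Over all genes 5.22% rose and 3.83% fell in *Ahr*+/- skin, and 10.6% rose and 12.1% fell in *Ahr*-/- skin. The part of these cell types in the cell cycle differences was not tested. Other probe sets exist for 35 members, and of these 62 sets, 55 were above 0 on IMQ in *Ahr*-/- skin and 57 were higher in the follicle-rich array than in the mean of the other untreated *Ahr*+/- arrays.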

How the data were processed

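RNA of whole shaved dorsal skin was hybridised to 12 GeneChip Mouse Genome arrays, 3 per group, labelled as biological replicates. The authors processed the arrays by RMA in affy (versions not given in the sources used here), and the deposited values are log2 signals, normalized between arrays and with no counts, so that the number of arrays limits the precision. Of 45101 probe sets, 64 were controls, 932 were annotated to several genes and 9160 to none. The remaining 34945 gave 18193 genes, each read from its set with the highest mean.

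Group means were fitted to all arrays with lmFit and eBayes of limma 3.58.1 (R 4.3.3), with Benjamini-Hochberg adjustment over all 18193 genes, and tables were handled in pandas 2.3.3. A gene was called at a fold change of 1.5 or more together with an adjusted p under 0.05. Groups came from the sample labels. The scripts were tested on simulated data. The members, the other gene lists and the marker lists were chosen with earlier results of these data known. Values in every array were given for *Mki67*, *Top2a*, *Cdk1*, *Mcm5*, *Pcna*, *Ccnd1* and *Ccne1* and, in each role group and comparison, for the member with the largest called rise or fall or, with none called, the lowest unadjusted p. *Bub1*, *Nusap1*, *Foxm1*, *Tyms* and *E2f1* were described after their values were seen. Of the other lists, up to 4 called genes with the largest differences were eligible.

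Alternatives were another variance model, the compared groups alone, the replicate number as a block, re-centring, the mean of a gene's probe sets, a minimum signal of 5, no fold minimum, an adjusted p under 0.01, the *Gapdh* difference or the follicle list mean as a covariate, and each array left out. A rank product with 100 permutations, a fold change of 1.5 or more and a pfp under 0.01, as in the study's criteria, was written anew in Python 3.11.15. Settings that combined the follicle-rich array with another change, or kept *Ahr*-/- array 3 alone of its IMQ group, were chosen after seeing the data.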

Additional observations from a re-analysis of the deposited data

How the results depend on the processing

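Counts of members that rose on IMQ depended on the setting, and no direction of a called gene was reversed in any setting run. Counts over all 18193 genes follow in parentheses. In *Ahr*+/- skin, against 8 with all arrays (949), the count was 1 to 44 (565 to 1290) when each array was left out in turn. It was 44 without the follicle-rich array (1290), 1 without untreated *Ahr*+/- array 1 (1191) and 1 without array 3 (608). It was 0 in a fit to the compared groups alone (603), 0 by the rank product (148) and 1 at an adjusted p under 0.01 (471). With the *Gapdh* covariate it was 3 (892), near the share of all genes, and with the follicle covariate 42 (973). Without the follicle-rich array it was 42 with the mean of probe sets (1131) and 44 with the *Gapdh* covariate (1312), both chosen after seeing the data. In *Ahr*-/- skin, against 33 (1928), it was 21 to 42 (1489 to 2168) when each array was left out. It was 11 with the *Gapdh* covariate (1007), 17 at an adjusted p under 0.01 (1255) and 4 by the rank product (192). With array 3 alone of the IMQ group the median difference of the members was 1.13, a value that rests on 1 array of that group.

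On day 2, the count of members lower in *Ahr*-/- skin, 0 with all arrays (339), was 0 to 4 (57 to 665) when each array was left out. It was 4 in a fit to the compared groups alone (529) and 3 without the follicle-rich array and with the mean of probe sets (602). The count of members higher was 1 with the follicle covariate (531), *E2f8* at 0.66 (SE 0.18, adjusted p = 0.0487 from limma). In untreated skin and for the difference of response, 0 members were called in every setting run, and the rank product and the fit to the compared groups alone were not run for the difference of response.

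Replicate numbers are shared by the groups. Deviations of arrays with the same number correlated between -0.184 and 0.316, not all over 0.1, so the numbers were not taken to pair the arrays. With a replicate block 9 members rose in *Ahr*+/- and 33 in *Ahr*-/- skin, where 958 and 1934 of all 18193 genes rose. In that fit 0 members were called in the other comparisons. With 3 arrays a group and 1 that stands apart, the arrays resolve large differences only. The cause of the changes between settings was not tested.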
